A study of Arvicanthis niloticus with 7 samples.

Results

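The genes described here encode the nuclear subunits of oxidative phosphorylation, chosen by symbol from the annotation of the array: those starting Nduf, Uqcr, Uqcc, Cox4 to Cox8 or Atp5, together with the Sdh subunits and *Cycs*. They number 86 of the 16110 genes with a symbol on the array and are read by 109 probes. The arrays measured RNA labelled as liver from male Nile rats (NR, *Arvicanthis niloticus*), an African grass rat that develops diabetes when fed carbohydrate-rich food. All the rats were 3 weeks old when they began 4 weeks of a high-carbohydrate diet, and they differed in whether palm fruit juice (PFJ), a water extract of the oil palm fruit rich in phenolic acids, was mixed into it. The PFJ group has 3 arrays, from rats given PFJ at 5.4 g of gallic acid equivalent in each kg of diet, and the control group has 4 arrays, from rats given the same diet without PFJ. No genetic alteration is given for either group. The methods describe samples selected within each condition and speak of biological replicates, but the animal behind each array is not named. A p-value here therefore sets a difference between the groups against the spread of these samples, whichever animals they came from.

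Oxidative phosphorylation takes place in the inner mitochondrial membrane. Complex I (NADH dehydrogenase) and complex II (succinate dehydrogenase, which is also an enzyme of the citrate cycle) pass electrons to ubiquinone. Complex III hands them to cytochrome c and complex IV gives them to oxygen. The protons pumped on the way drive complex V, the ATP synthase. Liver and kidney tubule are both rich in mitochondria, and several complex IV subunits exist as a general isoform and a heart or muscle isoform.

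The arrays carry mouse probes, and a probe was called detected at a detection p under 0.01. Between 4689 (PFJ replicate 3) and 5137 (control replicate 3) of the 25697 probes were detected. A gene was tested when a probe of it was detected on at least 3 arrays, which left 3734 genes, and values are log2 signals after background correction and quantile normalisation. Control replicates 3 and 4 stood apart from the other 5 arrays. Across tested genes, which do not vary independently, their correlation with each other was 0.986 and with the other arrays 0.759 to 0.778, whereas the other 5 arrays correlated at 0.955 to 0.979. Of 15 hepatocyte markers on the array 8 were tested and 5 were detected nowhere. The median of the 8 was 6.98 and 7.02 on these control arrays and 13.61 to 14.28 on the other 5. On both, 6 of the 8 lay below every other array, against 30.2% of all tested genes. The other 2 did not: *Hpd* was at 11.76 and 11.45 there and 10.997 to 11.515 elsewhere, and *Ttr* was detected on the PFJ arrays and on no control array. Of 15 kidney tubule markers, 2 were tested. Both lay higher on control replicates 3 and 4 than on every other array, as did 26.8% of all tested genes. A further 5 (*Umod*, *Slc12a1*, *Slc34a1*, *Cdh16* and *Pax8*) were detected on these 2 arrays alone, and 8 on none. The 5 have no background beside them, because no share is given for all genes detected on these 2 arrays alone. *Miox*, a kidney enzyme of inositol breakdown, was at 15.99 and 15.95 there and between 11.35 and 11.94 elsewhere. The labelled tissue is therefore borne out by most tested hepatocyte markers on 5 arrays only, and not by *Ttr* on control replicates 1 and 2. The fold changes below are given on all 7 arrays and, where they could be tested, without control replicates 3 and 4. The part that tissue make-up has in any result was not tested, and in whole-tissue RNA fewer cells of a type and less RNA per cell cannot be told apart.

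Of the 86 genes, 47 were tested and 44 of these were detected on all 7 arrays. The tested genes comprised 22 of 34 for complex I, 1 of 3 for complex II, 2 of 8 for complex III, 11 of 17 for complex IV, 9 of 16 for complex V and 2 of 7 assembly factors. The 34 genes detected on no array included core parts that respiring cells use, namely the iron-sulphur and flavin subunits of complex I *Ndufs1* and *Ndufv1*, the membrane anchors of complex II *Sdhc* and *Sdhd*, the core and Rieske proteins of complex III *Uqcrc2* and *Uqcrfs1*, and the carrier *Cycs*. The symbols of 30 of these 34 genes are in the NR genome annotation. A probe built on the mouse sequence can miss the NR transcript, so absence of signal here describes the probe, and whether this occurred was not tested. A further 5 genes were detected on 1 or 2 arrays. One of them, *Atp5b*, which encodes the catalytic beta subunit of the ATP synthase, was detected on PFJ replicates 2 and 3 and on no control array. With PFJ it was at 5.87, 6.40 and 7.71 (log2), against 5.58, 5.30, 5.24 and 5.07 on the control arrays, where it was not above background. Taking the lowest detected signal of each control array as the limit, the mean of the 3 PFJ arrays was 1.25-fold above it. That mean takes in PFJ replicate 1, where the probe was not detected, and leans on PFJ replicate 3, so it is no lower bound for the group. The other 4 were the accessory subunits *Ndufa3* and *Cox8b*, the pseudogene *Ndufs5-ps* and the catalytic alpha subunit *Atp5a1*, for which no fold is given.

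Over all 7 arrays the tested genes leaned lower with PFJ, but no single gene passed the test. Of the 47, 38 had a negative log2 fold change (PFJ minus control) and 9 had a positive value. Their median was -0.28, beside 0.03 over all 3734 genes, of which 47.7% were negative. The count of genes at an adjusted p under 0.05 from limma was 0 of 47 (background 0%), and the adjusted p-values of the 47 genes ran from 0.561 to 0.978. At the looser limit of an unadjusted p under 0.05, 0 of the 47 were lower (background 2.6%) and 0 were higher (background 2.17%). The PFJ and control values did not overlap in 3 genes, with PFJ lower in *Ndufb6* and *Atp5h* (2 of 47, background 3.62%) and higher in *Ndufa4* (1 of 47, background 3.45%), which is close to the background share. The medians were -0.19 for complex I, -0.50 for the single gene of complex II, -0.32 for complex III, -0.48 for complex IV and -0.34 for complex V. Leaving out PFJ replicate 3 alone brought the median to -0.15 for all members, -0.012 for complex I and -0.22 for complex V. Without control replicate 3 the medians of complexes II and III were -0.32 and -0.19, and without control replicate 4 that of complex II was -0.33. On all 7 arrays each of the 9 tested complex V genes was negative, as were 9 of 11 for complex IV and 15 of 22 for complex I. With array medians made equal in place of quantile normalisation, 44 of the 47 genes and 65.6% of all genes were negative. The count of 0 changed when single arrays were left out: 3 genes were lower at an unadjusted p under 0.05 without control replicate 1 (*Atp5g1*, *Cox6b1* and *Cox7a1*, background 6.76%), 2 without control replicate 2 (*Cox6b1* and *Cox7a1*, background 6.11%) and 1 without PFJ replicate 2 (*Cox6c*, background 1.87%), while 1 was higher without PFJ replicate 3 (*Ndufb9*, background 0.788%). The counts of lower genes, out of 47 in each case, are close to or under these shares.

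**Figure D1:**
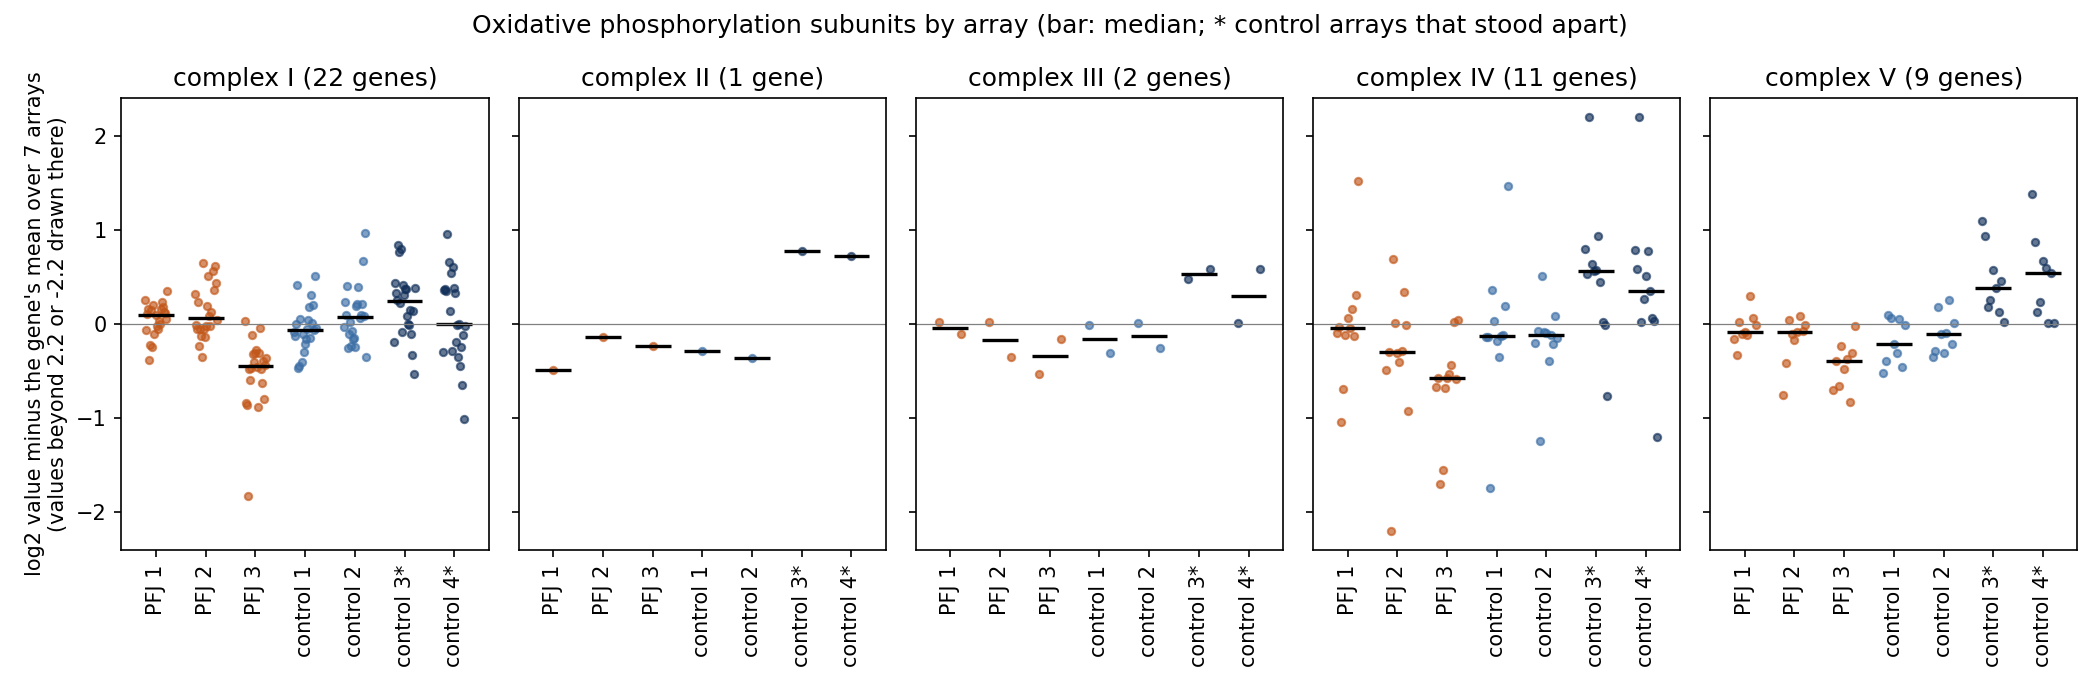
Log2 value of each tested gene minus its mean over the 7 arrays (vertical axis), by array (horizontal axis), with 1 panel per complex. Points are genes and bars are medians, PFJ arrays stand left of control arrays, and control replicates 3 and 4 carry an asterisk. Over complexes I to V and the assembly factors together, the median was lowest on PFJ replicate 3 (-0.46) and highest on control replicates 3 (0.38) and 4 (0.34).

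The lean rested on 3 arrays, as the plot of deviations by array shows. The median deviation of the 47 genes from their own means was -0.01, -0.02 and -0.46 on PFJ replicates 1, 2 and 3, against -0.11, -0.09, 0.38 and 0.34 on control replicates 1 to 4. The PFJ replicates 1 and 2 thus lay beside control replicates 1 and 2, with PFJ replicate 3 below them and control replicates 3 and 4 above. Without control replicates 3 and 4, 46 genes were tested, of which 29 were lower and 17 higher with PFJ. Their median was -0.06, beside -0.01 over the 3543 genes then tested. By complex, the medians were then -0.06 for I, 0.04 for II, -0.04 for III, -0.22 for IV and -0.03 for V, and complex IV, with 8 of 10 genes lower, had the lowest. Without them 0 of 46 passed an adjusted p under 0.05 from limma (background 0%), and at an unadjusted p under 0.05 0 were lower (background 1.44%) and 0 higher (background 1.35%). With PFJ replicate 3 left out as well, a choice made after its values were seen, 20 genes were lower and 26 higher, with a median of 0.02 for all and of -0.011 for complex IV.

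Control replicates 3 and 4 both lay above every other array in 25 of the 47 genes (background 26.8%) and both below in 2 (background 30.2%). The 25 comprised 8 of 22 genes for complex I, the complex II gene, 1 of 2 for complex III, 7 of 11 for complex IV, 6 of 9 for complex V and both assembly factors. The 2 genes below were *Ndufa4* and *Ndufs7*. With the authors' normalised values they lay above in 21 of 47 genes (26.8% of all), and with equal array medians in 26 of 47 (38.1% of all). Among the 47 genes, whose levels are not independent, the correlation of control replicates 3 and 4 with the other arrays was 0.898 to 0.937, and that among the other 5 arrays 0.973 to 0.994.

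PFJ replicate 3 was the lowest of the 7 arrays in 31 of the 47 genes (66.0%, background 14.9%) and the highest in 0. It was lowest in 16 of 22 genes for complex I, 8 of 11 for complex IV and 6 of 9 for complex V. Within the PFJ group it lay below both other arrays in 38 of 47 genes, against 34.9% of all tested genes, and in complex I it did so in 21 of 22, by a median of 0.41 log2 units below the lower of the 2. Of 5 tested citrate cycle genes it was lowest in 0, and of 9 tested genes for electron entry and adenine nucleotide exchange in 1. It was lowest in 2 of 7 tested genes for assembly and cofactor delivery and in 2 of 7 tested regulators of mitochondrial biogenesis. PFJ replicate 3 also had the fewest detected probes, and the part of that in these values was not tested. The count was 33 of 47 with the authors' normalised values (17.2% of all genes) and 43 of 47 when array medians were made equal instead (36.9% of all genes).

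Complex I was tested through the core subunits *Ndufv2*, *Ndufs7* and *Ndufs8* and through accessory subunits. On 7 arrays the widest differences were in accessory subunits. *Ndufa4* had the lowest p from limma among the genes counted in complex I, but not one of the widest differences. Its product was first placed in complex I and is now known as a subunit of complex IV. By its symbol the gene is counted in complex I here. The counts and medians of complex I therefore include it, and those of complex IV do not. *Ndufa4* had log2 values of 8.25, 8.32 and 8.03 on the PFJ arrays, against 7.92, 7.96, 7.81 and 7.70 on the control arrays. Every PFJ value lay above every control value. The fit gave 0.35 on the log2 scale (standard error 0.18, limma adjusted p = 0.561), and 0.26 without control replicates 3 and 4. The log2 fold change of *Ndufa4* depended on the scaling, at 0.23 with the authors' normalised values and 0.059 with equal array medians. *Ndufb6*, an accessory subunit of the membrane arm, was at 7.37, 7.44 and 5.38 on the PFJ arrays, against 7.62, 7.61, 7.46 and 7.55 on the control arrays. The groups did not overlap, but PFJ replicates 1 and 2 lay just under the lowest control, and the log2 fold change of -0.83 (standard error 0.50) rested on PFJ replicate 3, where the probe was not detected. It was -0.85 without control replicates 3 and 4.

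*Ndufa7*, an accessory subunit, was at 10.00, 10.06 and 9.23 with PFJ, against 9.94, 10.29, 10.50 and 10.42 in controls, and the log2 fold change was -0.53 with a standard error of 0.27. *Ndufa13*, an accessory subunit also known as GRIM-19, was at 12.66, 12.51 and 11.70 with PFJ, against 12.57, 12.66, 12.89 and 12.94 in controls, and the log2 fold change was -0.47 with a standard error of 0.28. In both genes PFJ replicate 3 was the lowest and control replicates 3 and 4 the highest, and the groups overlapped. Without control replicates 3 and 4 the log2 fold changes were -0.37 and -0.32. *Ndufa6*, an accessory subunit of the LYR protein family, was at 14.17, 14.33 and 14.09 with PFJ, against 14.10, 14.31, 15.40 and 15.52 in controls. Its 5 arrays outside control replicates 3 and 4 spanned only 0.24 log2 units, and its log2 fold change was -0.63 on 7 arrays but -0.01 without those 2. *Ndufv2*, the core subunit beside the flavin site, was likewise highest on control replicates 3 and 4, at 13.18, 13.08 and 13.31 with PFJ, against 13.03, 13.19, 14.23 and 13.97 in controls, and its log2 fold change turned from -0.42 to 0.08 when they were left out.

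*Ndufs7*, a core subunit at the quinone site, ran the other way. It was at 6.47, 6.85 and 5.98 with PFJ, against 6.92, 7.37, 5.88 and 5.40 in controls, and was detected on 2 arrays of each group. Control replicates 3 and 4 were its lowest arrays. Its log2 fold change was 0.04 on 7 arrays (standard error 0.51) and -0.68 without them (standard error 0.30, adjusted p = 0.999 from limma), the lowest p of the 46 genes in that comparison. *Ndufb3*, an accessory subunit of the membrane arm, likewise moved from 0.06 to -0.42. *Ndufb6*, *Ndufa6*, *Ndufs7* and *Ndufb3* are named here after their values were seen. The other complex I genes had log2 fold changes between -0.51 (*Ndufc1*) and 0.32 (*Ndufb9*), which were -0.015 and 0.28 without control replicates 3 and 4.

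**Figure D2:**
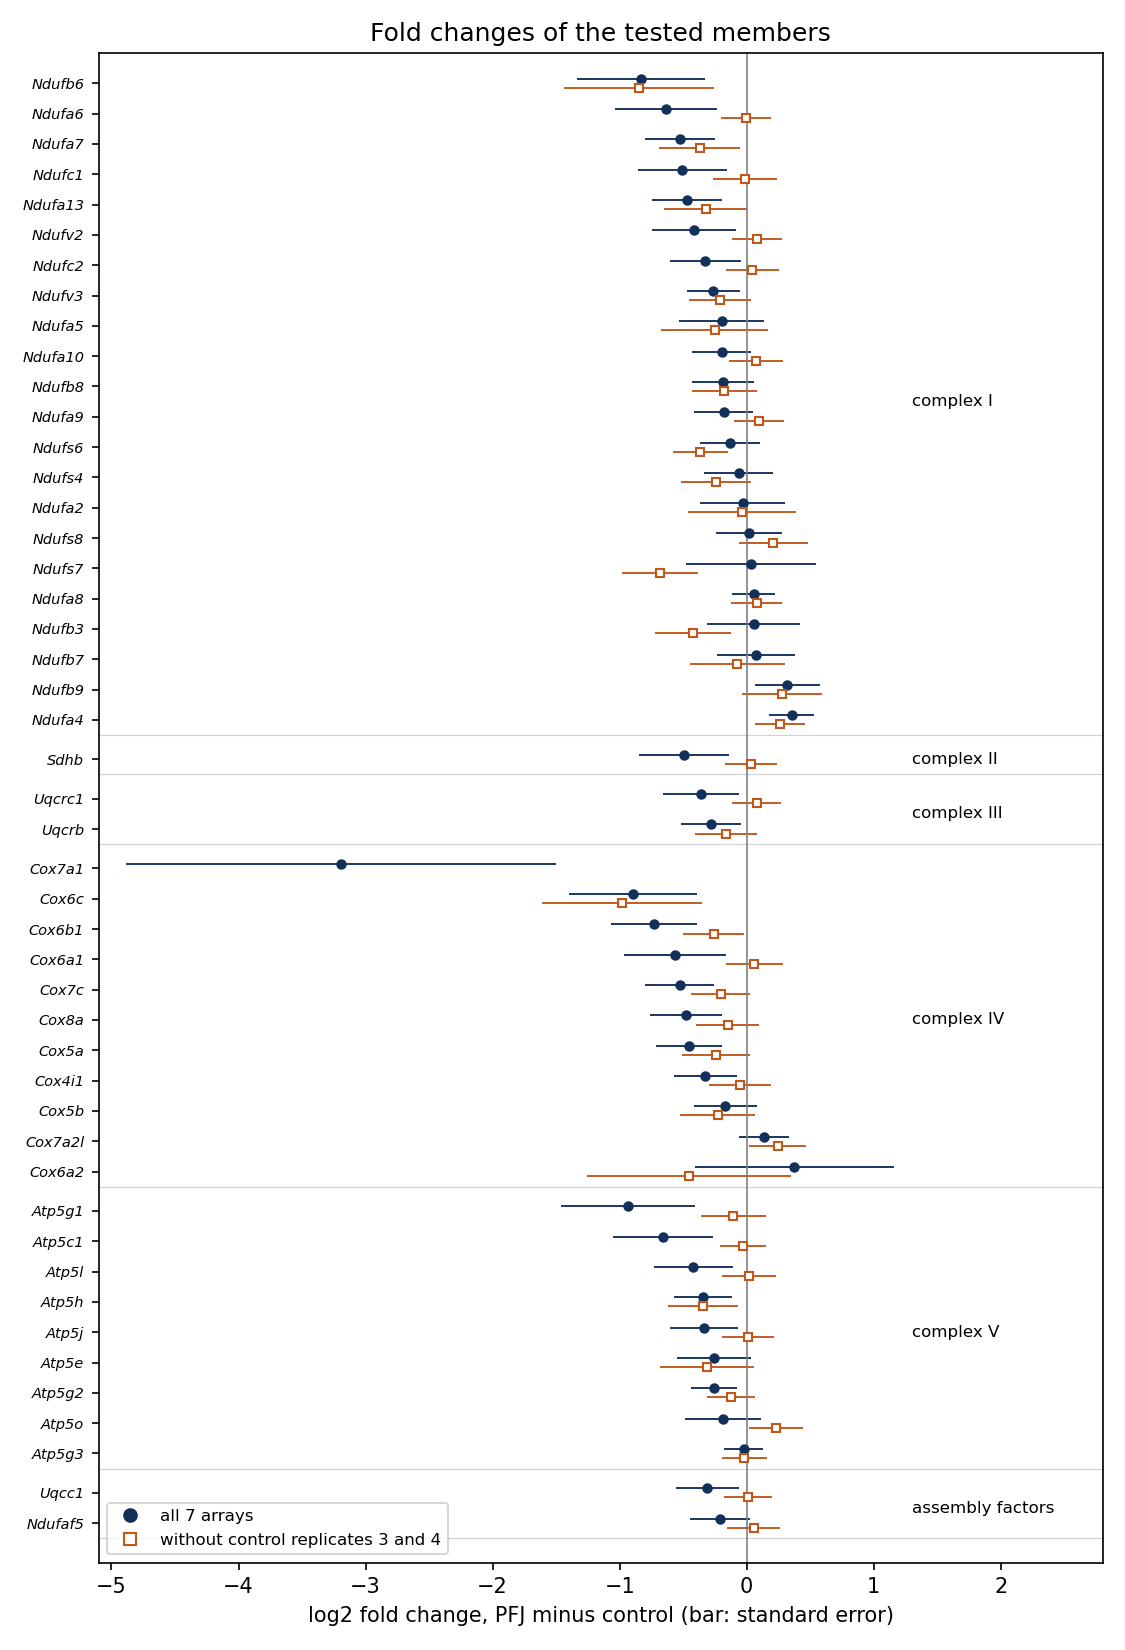
Log2 fold change of each tested gene, PFJ minus control (horizontal axis, bars are standard errors), grouped by complex. Filled circles are the fit on all 7 arrays and open squares the fit without control replicates 3 and 4, for which *Cox7a1* was not tested. The medians were -0.28 for circles and -0.06 for squares.

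Complex II was tested through *Sdhb*, the iron-sulphur subunit, alone. It was at 12.21, 12.56 and 12.46 with PFJ, against 12.41, 12.33, 13.47 and 13.42 in controls. The PFJ arrays and control replicates 1 and 2 were mixed, and control replicates 3 and 4 lay 0.86 above the highest of them. The log2 fold change was -0.50 (standard error 0.35), and 0.04 (standard error 0.20) without those 2 arrays.

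Complex III was tested through *Uqcrc1*, a core protein of its matrix side, and *Uqcrb*, a small subunit at the ubiquinone site. *Uqcrc1* was at 11.71, 11.47 and 11.67 with PFJ, against 11.52, 11.57, 12.41 and 12.41 in controls. Its control replicates 3 and 4 lay 0.69 above all others, and the log2 fold change was -0.36 with a standard error of 0.30, or 0.08 without them. *Uqcrb* was at 14.67, 14.67 and 14.12 with PFJ, against 14.64, 14.66, 15.13 and 14.66 in controls. Here 5 arrays lay between 14.64 and 14.67, with PFJ replicate 3 below and control replicate 3 above, and the log2 fold change was -0.28 (standard error 0.24), or -0.16 without control replicates 3 and 4. *Cyc1*, which encodes cytochrome c1 of the same complex and falls outside the symbols chosen, was at 11.48, 11.46 and 11.76 with PFJ, against 11.37, 11.56, 12.68 and 12.64 in controls, so that its control replicates 3 and 4 also stood highest. Its log2 fold change was -0.50, or 0.11 without them.

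Complex IV had the lowest median of the complexes with more than 2 tested genes, and the gene with the widest spread of the 47. *Cox7a1*, the heart and skeletal muscle isoform of subunit VIIa that brown fat also expresses, was at 6.57, 4.87 and 5.92 on the PFJ arrays, against 5.87, 6.38, 11.83 and 11.85 on the control arrays. It was detected on PFJ replicate 1 and on control replicates 3 and 4, and the last 2 stood 5.26 log2 units above all others. The fitted difference of -3.20 (standard error 1.69) rested on those 2 arrays. It sets them against values of which 4 of 5 were not above background, so it gives no size for a difference between the diets. Without those 2 arrays the gene was detected on too few arrays to be tested. The step was similar with the authors' normalised values, where control replicates 3 and 4 were at or above 11.63 and the other arrays at or below 6.23. Of 9 striated muscle markers on the array, 7 were detected nowhere and 1, the mitochondrial creatine kinase *Ckmt2*, on control replicates 3 and 4 alone. For that pattern too no share over all genes is given. *Cox7a1* is also 1 of 5 brown fat markers, of which 3 were detected nowhere. The general isoform *Cox7a2* was detected on no array, so the 2 forms could not be set side by side.

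Both isoforms of subunit VIa were detected on all 7 arrays. *Cox6a1*, the general form, was at 13.07, 12.71 and 12.58 with PFJ, against 12.75, 12.71, 14.04 and 13.89 in controls, and its log2 fold change of -0.56 (standard error 0.40) became 0.06 without control replicates 3 and 4. *Cox6a2*, the heart and muscle form, was at 10.74, 8.30 and 9.25 with PFJ, against 10.69, 9.07, 8.45 and 8.01 in controls. It spread over 2.44 log2 units within the PFJ group and 2.67 in controls, with PFJ replicate 1 and control replicate 1 highest, and the log2 fold change was 0.37, smaller than its standard error of 0.78, and -0.46 without control replicates 3 and 4. The testis forms *Cox6b2* and *Cox7b2* and the lung form *Cox4i2* were not detected.

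*Cox6b1*, a general subunit that faces cytochrome c, had the lowest p of the 47 genes. It was at 15.09, 14.70 and 14.51 with PFJ, against 15.04, 14.98, 15.98 and 15.97 in controls. PFJ replicate 1 exceeded control replicates 1 and 2, so the groups overlapped. The fit gave -0.73 on the log2 scale (standard error 0.34; limma adjusted p = 0.561), and -0.26 (standard error 0.24) without control replicates 3 and 4. The study listed *Cox6b1* among its regulated genes from these same arrays, so the direction is not independent evidence.

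*Cox7c*, a small membrane subunit, was at 15.13, 14.87 and 14.59 with PFJ, against 15.03, 15.09, 15.69 and 15.74 in controls, and the log2 fold change was -0.53 with a standard error of 0.27, or -0.20 without control replicates 3 and 4. *Cox6c*, named after its values were seen, was at 9.78, 11.16 and 8.92 with PFJ, against 10.83, 10.98, 11.10 and 10.48 in controls. The 3 PFJ arrays of *Cox6c* spread over 2.24 log2 units while the control arrays lay within 0.62, and the log2 fold change was -0.90 on 7 arrays, with a standard error of 0.50, and -0.98 without control replicates 3 and 4. It is the complex IV gene with the lowest value in that comparison. *Cox4i1*, *Cox5a* and *Cox5b*, whose products complete the enzyme around its catalytic core, had log2 fold changes of -0.32, -0.45 and -0.17, and of -0.06, -0.24 and -0.23 without those arrays. *Cox8a* was at -0.48 and -0.15. *Cox7a2l*, which helps join complexes III and IV into a supercomplex, was at 0.14 and 0.24.

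**Figure D3:**
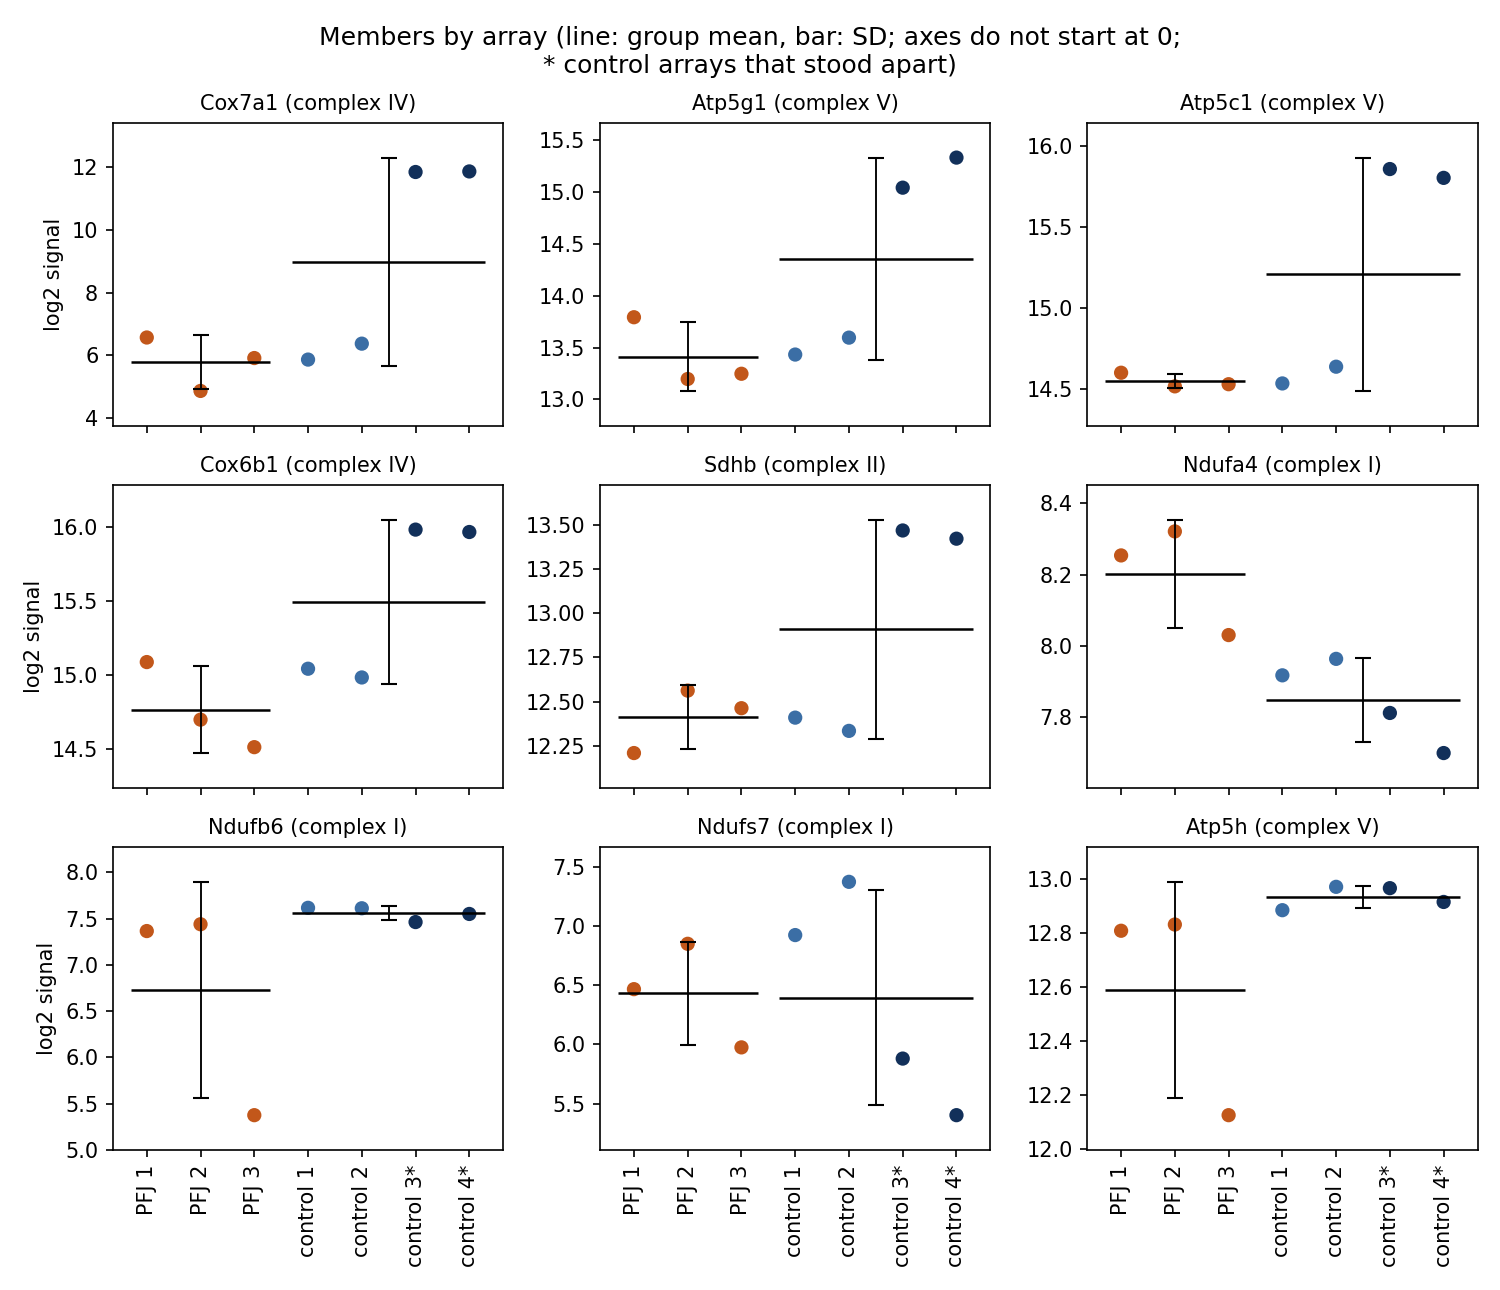
Log2 signal of 9 genes (vertical axes, 1 scale per gene) by array (horizontal axis), PFJ left of control. Lines are group means and bars SD over 3 PFJ and 4 control arrays. Control replicates 3 and 4 stand above the other arrays in *Cox7a1*, *Atp5g1*, *Atp5c1*, *Cox6b1* and *Sdhb*, whereas PFJ replicate 3 stands below the rest in *Ndufb6* and *Atp5h*.

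Complex V showed both patterns. *Atp5g1*, 1 of 3 genes for the membrane ring subunit c that turns as protons pass, was at 13.79, 13.20 and 13.25 with PFJ, against 13.43, 13.60, 15.04 and 15.33 in controls. Control replicates 3 and 4 lay 1.25 above the highest other array, and the log2 fold change was -0.94 (standard error 0.53), or -0.10 (standard error 0.26) without them. Its sister gene *Atp5g2* was at 12.31, 12.31 and 12.19 with PFJ, against 12.47, 12.30, 12.67 and 12.65 in controls, a narrower range with a log2 fold change of -0.25, or -0.13 without those arrays. The third gene, *Atp5g3*, lay between 16.06 and 16.11 on every array, at or above 96.9% of the brightest signal of its array, where a difference can be compressed. *Atp5c1*, the central stalk subunit gamma, was at 14.60, 14.52 and 14.53 with PFJ, against 14.53, 14.64, 15.86 and 15.80 in controls. The other 5 arrays spanned 0.12 log2 units, and the log2 fold change was -0.66 (standard error 0.39) and -0.03 (standard error 0.18) without control replicates 3 and 4.

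*Atp5h*, subunit d of the peripheral stalk, was at 12.81, 12.83 and 12.12 with PFJ, against 12.88, 12.97, 12.97 and 12.91 in controls. The 4 control arrays lay within 0.09, every PFJ array lay below them, and PFJ replicate 3 lay furthest. Its log2 fold change was -0.35 (standard error 0.23) and -0.34 without control replicates 3 and 4. *Atp5o*, the stalk subunit that confers oligomycin sensitivity, was at 9.82, 9.68 and 9.45 with PFJ, against 9.30, 9.54, 10.21 and 10.29 in controls, and its log2 fold change of -0.19 became 0.23 without control replicates 3 and 4. *Atp5e*, *Atp5j* and *Atp5l* had log2 fold changes of -0.26, -0.34 and -0.42, and of -0.31, 0.01 and 0.02 without those arrays. *Atp5g2*, *Atp5g3*, *Atp5e*, *Atp5j* and *Atp5l* are named after their values were seen.

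Of the assembly factors among the symbols, *Uqcc1*, for complex III, was at 11.26, 11.18 and 11.30 with PFJ, against 11.13, 11.34, 11.88 and 11.88 in controls. *Ndufaf5*, a factor that modifies Ndufs7 during complex I assembly, was at 8.80, 9.05 and 8.73 with PFJ, against 8.67, 8.95, 9.31 and 9.38 in controls. Control replicates 3 and 4 were highest in both, and the log2 fold changes of -0.31 and -0.21 became 0.01 and 0.05 without them.

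In 6 genes more than 1 probe was detected on at least 3 arrays, which allowed a check within the gene. The pairs agreed in sign for *Sdhb* (-0.50 for the brighter probe used above and -0.43), *Cox6a1* (-0.56 and -0.78), *Cox6b1* (-0.73 and -0.75), *Ndufc1* (-0.51 and -0.26) and *Ndufv3* (-0.26 and -0.05). The 3 probes of *Ndufs4*, an accessory subunit of the NADH arm, disagreed, with -0.06 for the probe used and 0.60 and 0.66 for the others, so no direction is given for it. The probe used for *Ndufs4* read 13.12 and 12.53 on control replicates 3 and 4, within the 12.50 to 13.28 of the other arrays, whereas the other 2 probes were lowest there. The second probe of *Ndufv3* fell to 5.16 on PFJ replicate 3, where it was not detected, against 6.06 to 7.37 on the other 6 arrays.

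**Figure D4:**
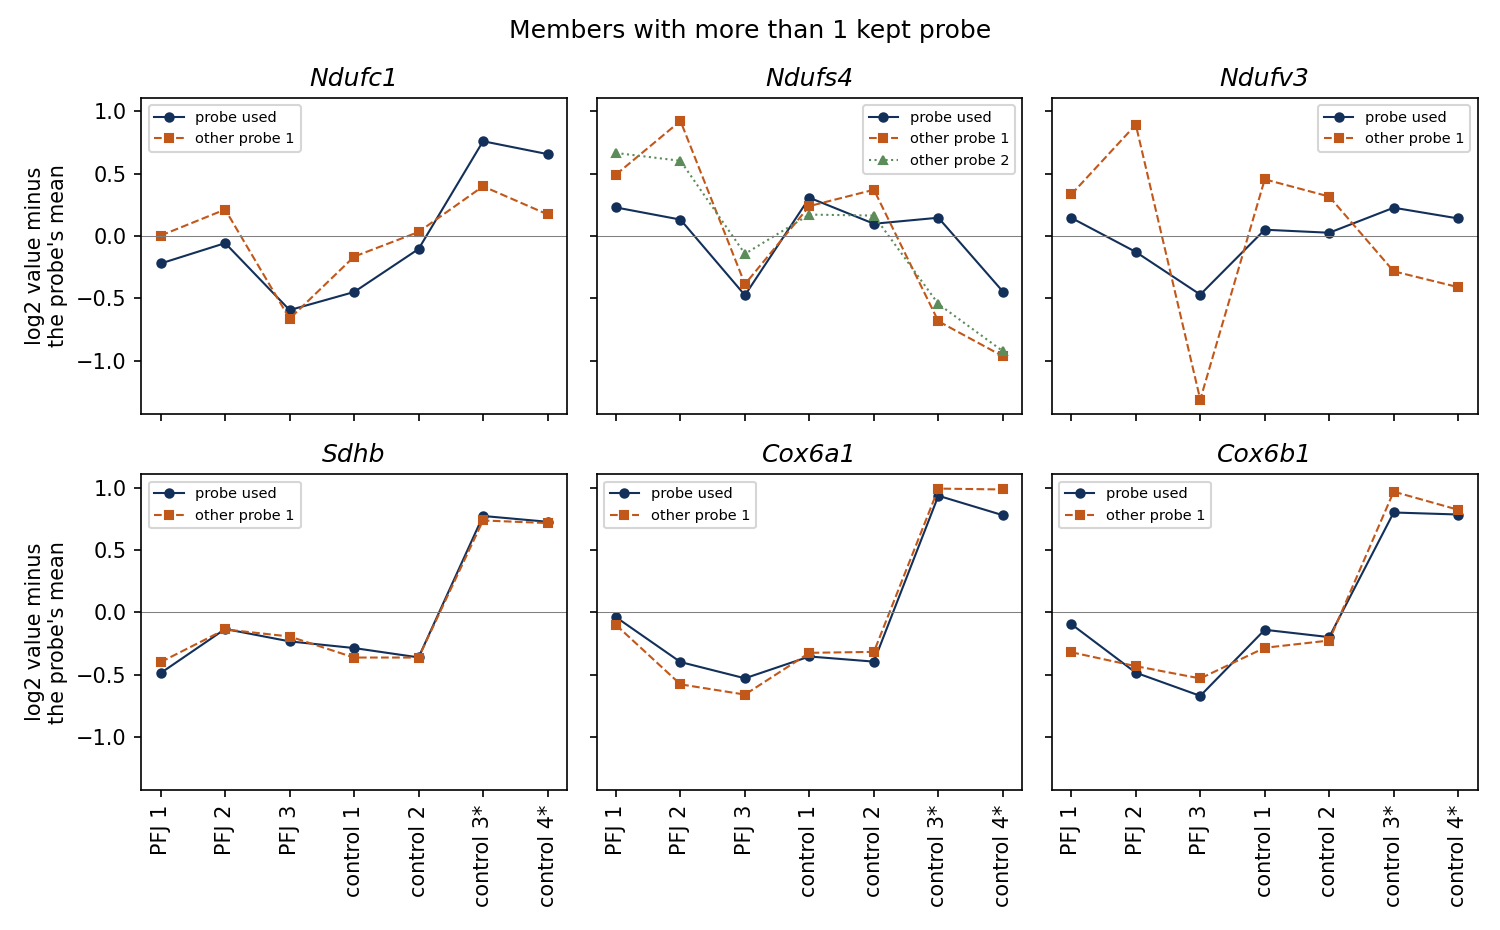
Log2 value of each probe minus its mean over the 7 arrays (vertical axis) by array (horizontal axis) for the 6 genes with more than 1 kept probe. The probes of *Sdhb*, *Cox6a1* and *Cox6b1* run together, and those of *Ndufs4* part on control replicate 3, where the probe used is above its mean and the others are below theirs.

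Genes around the complexes were counted from lists chosen with earlier results of these data known. Of 18 genes for assembly and cofactor delivery, 7 were tested, with a median log2 fold change of -0.26, or -0.040 without control replicates 3 and 4. On 7 arrays 1 of the 7 was lower at an unadjusted p under 0.05 (background 2.6%). This was *Cox10*, the farnesyltransferase of haem A synthesis, at 8.92, 8.52 and 8.28 with PFJ, against 9.09, 8.93, 9.31 and 9.05 in controls. Every PFJ value of *Cox10* lay below every control value (background 3.62%). Its log2 fold change was -0.52 (adjusted p = 0.561 from limma) and -0.44 without control replicates 3 and 4, and the study also listed it from these arrays. Of 11 genes for electron entry and adenine nucleotide exchange, 9 were tested, with a median of -0.014, or -0.0051 without those arrays. On 7 arrays 0 of the 9 passed an unadjusted p under 0.05 (background 2.6% lower and 2.17% higher), with 5 lower and 4 higher. The lowest p was that of *Vdac1*, a voltage-dependent anion channel named after its values were seen. It was at 10.10, 10.12 and 10.10 with PFJ, against 10.49, 10.24, 11.15 and 11.15 in controls, without overlap (background 3.62%). Its log2 fold change was -0.65 (adjusted p = 0.561 from limma), or -0.27 without control replicates 3 and 4. The study listed *Vdac1* too, from these same arrays. Without control replicates 3 and 4, *Gpd2*, the glycerol 3-phosphate dehydrogenase that feeds ubiquinone, was lower at an unadjusted p under 0.05 (1 of 9, background 1.44%). Its log2 fold change was then -1.13 (adjusted p = 0.999 from limma). The gene was at 8.78, 8.09 and 7.57 with PFJ, against 9.23, 9.27, 6.84 and 7.04 in controls. Control replicates 3 and 4 were thus lowest, and the log2 fold change on 7 arrays was 0.05.

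Of 14 citrate cycle genes on the array, 5 were tested, with a median of -0.40 on 7 arrays and -0.14 without control replicates 3 and 4. On 7 arrays none of the 5 passed an unadjusted p under 0.05 (background 2.6% lower and 2.17% higher). Control replicates 3 and 4 both lay above every other array in 4 of the 5 (background 26.8%) and both below in 0 (background 30.2%). *Idh3g*, a subunit of isocitrate dehydrogenase, was at 14.07, 13.84 and 13.88 with PFJ, against 14.07, 13.83, 15.05 and 14.81 in controls. Of 10 regulators of mitochondrial biogenesis, 7 were tested, with a median of -0.32 and -0.10 without those arrays. In 3 of the 7, control replicates 3 and 4 both lay above every other array (background 26.8%). In 2 both lay below (background 30.2%), the mitochondrial RNA polymerase *Polrmt* and the DNA polymerase *Polg*. *Ppargc1a*, the coactivator PGC-1alpha, was at 7.14, 7.19 and 6.74 with PFJ, against 7.51, 6.97, 8.89 and 8.62 in controls, and *Esrra*, an orphan receptor it acts with, at 12.13, 11.93 and 11.89 with PFJ, against 11.96, 12.12, 13.02 and 13.01 in controls. In *Idh3g*, *Ppargc1a* and *Esrra* control replicates 3 and 4 were the highest arrays, and their log2 fold changes of -0.51, -0.98 and -0.55 became -0.02, -0.22 and -0.06 without them. *Polrmt* was at 11.67, 11.41 and 11.98 with PFJ, against 11.74, 11.33, 11.04 and 10.97 in controls, and its log2 fold change of 0.42 became 0.16 without control replicates 3 and 4. *Polg* was at 7.99, 8.92 and 8.75 with PFJ, against 8.49, 8.57, 7.44 and 7.78 in controls, and its log2 fold change of 0.48 likewise became 0.02. These 5 genes are named after their values were seen.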

How the data were processed

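Per the labels, RNA came from 3 PFJ and 4 control NR samples and was hybridised to Illumina mouse arrays. The methods state that 8 RNA samples were chosen by integrity and that samples standing apart by clustering were removed. The deposited table holds each probe's mean signal intensity with a detection p-value against negative controls, made by the authors in GenomeStudio 2011.1. A series table holds the values the authors normalised by the rank-invariant method, an intensity used as an alternative. GenomeStudio's error model was replaced by limma 3.58.1 (R 4.3.3).

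Signals were corrected and quantile normalised with neqc (offset 16), with background from the detection p-values. Probes detected at p under 0.01 on at least 3 arrays were kept, and the brightest kept probe stood for its gene. Groups were compared with lmFit and eBayes (two-sided), adjusted by Benjamini-Hochberg over 3734 genes. Of 25697 probes, 23141 had 1 symbol and 2556 were not listed. Member symbols in the NR annotation of RefSeq numbered 68 of 86. The test was checked on simulated data.

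Where 1 group had no array with detection, the bound sets the mean of the brighter group against the mean, per array, of the higher of the lowest detected signal and the signal of the probe. The arrays give no read depth, and their number limits the precision.

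Named genes were core subunits, the 3 lowest p-values of complexes I, III, IV and V, tissue isoforms, assembly factors and genes with more than 1 kept probe. Members and lists were chosen with earlier results of these data known. Alternatives were equal medians, the authors' values, other detection rules, an offset of 50, the mean of probes, the replicate number as a block, and leaving arrays out. The labels do not say whether the shared replicate numbers 1 to 3 pair the samples, and the main fit did not use them as pairs.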

Additional observations from a re-analysis of the deposited data

Results flagged for a closer look

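In each tested gene the 4 control arrays were examined for a lowest or highest value far from the rest (Dixon's ratio past its critical value), a rule that chance meets in about 1 in 20 groups. It was met in 2 of 47 genes. In *Uqcrb* control replicate 3 was at 15.13, while the other 3 control arrays lay between 14.64 and 14.66. In *Ndufb9*, an accessory subunit of complex I, control replicate 4 was at 7.49, while the others lay between 7.66 and 7.70. Groups of 3 PFJ arrays are too small for this rule, so the low values of PFJ replicate 3 were not examined by it, and values that control replicates 3 and 4 share cannot meet it either.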

How the results depend on the processing

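For the 25 genes named by rule, 368 of 394 values under other settings kept their direction and 26 turned. Changing the detection rule leaves the fold change of a tested gene as it was, and so does the mean of probes where 1 probe is kept. Those values could not turn, so the count of 368 cannot show that the directions hold. Of 96 medians, 86 stayed within 1 SD between replicates and 10 moved further. That SD takes in control replicates 3 and 4 and PFJ replicate 3. For all members it was 0.26, beside a median of -0.28, so the median of -0.06 without control replicates 3 and 4 counted as staying. The count of 86 therefore cannot show that the medians hold. No setting gave a member at an adjusted p under 0.05. With no detection filter, which lets in genes at background, 2 of 86 members were lower (*Atp5pb*, *Ndufb5*; 2.21% of all genes) and 4 higher (*Atp5b*, *Ndufa12*, *Ndufa4*, *Uqcr10*; 2.76% of all genes) at an unadjusted p under 0.05, and the complex III median was -0.0021. Leaving out 1 array gave 0 to 3 members lower and 0 to 1 higher. The highest count, without control replicate 1, stood beside 6.76% of all genes, and the gene higher without PFJ replicate 3 beside 0.788%. Without control replicates 3 and 4 the medians of complexes II, III and V were 0.036, -0.042 and -0.032, and the direction turned for *Atp5o* (0.23), *Cox6a1* (0.058), *Cox6a2* (-0.46), *Ndufaf5* (0.053), *Ndufv2* (0.083), *Sdhb* (0.036), *Uqcc1* (0.011) and *Uqcrc1* (0.079). On the 4 arrays that also lack PFJ replicate 3, which was chosen once the data had been seen, medians were 0.018 for all members and 0.083, 0.0053, 0.036, -0.011 and -0.015 for complexes I to V, and the direction turned for *Atp5o* (0.33), *Cox4i1* (0.071), *Cox5b* (0.019), *Cox6a1* (0.17), *Cox6a2* (-0.36), *Cox8a* (0.0074), *Ndufaf5* (0.12), *Ndufc1* (0.14), *Ndufv2* (0.016), *Sdhb* (0.0053), *Uqcrb* (0.021) and *Uqcrc1* (0.051). *Ndufs4* was 0.015 with the authors' values and 0.40 with the mean of probes. Leaving out 1 array moved *Ndufs4* between -0.22 and 0.15, *Cox5b* between -0.37 and 0.075 and *Cox6a2* between -0.28 and 0.94. The cause of these turns was not tested.

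Setting the medians of the arrays equal moved the median of all genes to -0.18, with 65.6% of all genes and 44 of 47 members lower, against 47.7% and 38 of 47. The median of members was then -0.42, or 0.24 below that of all genes. The authors' values gave 37 of 47 lower. Same-numbered PFJ and control arrays had correlations of their deviations of 0.09, 0.22 and 0.13. PFJ replicates 1 and 2 correlated best with the control array of their own number, but PFJ replicate 3 with control replicate 4 (0.16). The labels give no pairing, and the numbers were not taken as pairs in the main fit. With the replicate block, the median of members was -0.25, 0 members passed an unadjusted p under 0.05, and 32 genes of all were lower and 33 higher, against 97 and 81. Most member probes not kept lay at background, where no level can be read.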

Other observations

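For red cells, stellate cells and fibroblasts, and macrophages, 1 marker each was tested, of 2, 5 and 3 on the array. The first 2 of these markers parted on control replicates 3 and 4, the red cell marker lower and the stellate marker higher. Over all tested genes, 30.2% lay below every other array on both and 26.8% above. *Alas2*, the haem synthesis enzyme of red cell precursors, was at 13.83, 14.53 and 13.85 with PFJ, against 13.68, 14.45, 10.10 and 10.56 in controls. *Col1a1*, a fibrillar collagen chain, was at 5.75, 6.41 and 7.52 with PFJ, against 5.66, 6.22, 8.46 and 9.09 in controls, and was detected on 2 arrays of each group. *Lyz2*, a macrophage lysozyme, was at 9.31, 9.06 and 9.57 with PFJ, against 9.65, 9.28, 8.29 and 9.46 in controls, and control replicates 3 and 4 did not both stand apart in it.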
